A study of Danio rerio with 12 samples.

Results

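The genes of the lysosome described here are the cathepsins and legumain, the subunits and accessory proteins of the vacuolar proton pump, membrane proteins of the lysosome, soluble proteins that handle lipids and glycans, and the transcription factors Tfeb and Tfe3. They were chosen by their gene symbols, with earlier results of these data known, and 62 of the 22736 genes of the table carried such a symbol. The members were 17 cathepsin and legumain genes, 13 subunits of the V1 sector and 9 of the V0 sector of the pump, 4 accessory proteins, 11 membrane proteins, 5 soluble proteins and 3 transcription factor genes. The annotation column of the table placed 36 of the 62 in the lysosome pathway, among them 1 of the 13 V1 subunits. RNA came from hearts of adult zebrafish of the AB strain, 3 to 12 months of age, either myd88+/+ or myd88-/- (the hu3568 allele), so that the mutants carried the lesion in this Toll-like receptor adaptor in every cell. Each genotype gave 2 libraries of ventricles without injury (UT), 2 of the injured tissue 1 hour after cryoinjury (1 hpci) and 2 of the injured tissue 24 hours after it (24 hpci), and every library was a pool of 3 ventricles or tissues. Against UT, the effect of injury and that of taking another region of the heart cannot be told apart, and the spread between replicates is that between pools.

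Lysosomes are acidic compartments in which proteins, lipids and glycans taken up by endocytosis, phagocytosis or autophagy are broken down. The vacuolar ATPase acidifies them: its V1 sector hydrolyses ATP in the cytosol and drives a ring of proteolipid subunits in the membrane-embedded V0 sector, which carries protons into the lumen. Tfeb and Tfe3 belong to the MiT family of transcription factors, which in mammalian cells bind a shared promoter motif and activate genes of the lysosome and of autophagy. In an injured heart, lysosomes are prominent in the macrophages that take up dead cells, and they are also present in cardiomyocytes, endocardial cells and fibroblasts.

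The values are read counts divided by a size factor for each library and rounded to whole numbers by the authors, and are called normalized values here. Their total lay between 2998177 and 3747891 per library. The steps between low values gave an estimate of 1476827 reads for replicate 1 of myd88+/+ at 24 hpci and of 3036272 to 4123603 for the other 11 libraries, so that 1 read stood for 2.54 normalized counts in that library and for at most 1.06 in any other. That library also stood apart in its lysosome genes. Its values exceeded those of its replicate in 45 of the 57 members tested, by a median of 1.62-fold, whereas the median ratio of replicate 1 to replicate 2 lay between 0.865 and 1.16 in the other 5 conditions. Replicate 1 was the higher in 6 and 12 of the 57 members in myd88-/- at 1 and 24 hpci. The size of the ratio, rather than the count, was thus unusual. Over all genes the ratio at 24 hpci in myd88+/+ grew with the level. Its median was -0.47 on the log2 scale for genes with values between 20 and 50 and 0.47 for genes above 800. For the 10 members above 800 it was 1.11. At 1 hpci in myd88+/+ the ratio grew with the level too, from -0.38 to 0.22, and was 0.32 for the members above 800. The counts at 24 hpci in myd88+/+ and the changes of its called members are therefore given with replicate 1 of 24 hpci and also without it. The transcript of the targeted gene myd88 was 63 and 56 in myd88+/+ UT, 200 and 171 at 1 hpci and 79 and 113 at 24 hpci, against 32 and 37, 199 and 210, and 43 and 66 in myd88-/-. The mutation does not remove the transcript, so these values do not check the genotype labels.

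The test was limma on log2(value + 1), run on the 16643 genes whose mean in the 12 libraries exceeded 5. To be called, a gene had to change more than 1.5-fold with a p below 0.05 after Benjamini-Hochberg adjustment over all of them, and changes are given as log2 fold changes with their standard errors. Of the 62 members 57 were tested. The other 5, ctsbb, mcoln1b, atp6v0a1b, atp6v0a2a and atp6v1c2, had values of at most 16 in any library. Adding 1 shrinks the fold changes of weakly expressed genes.

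**Figure D1:**
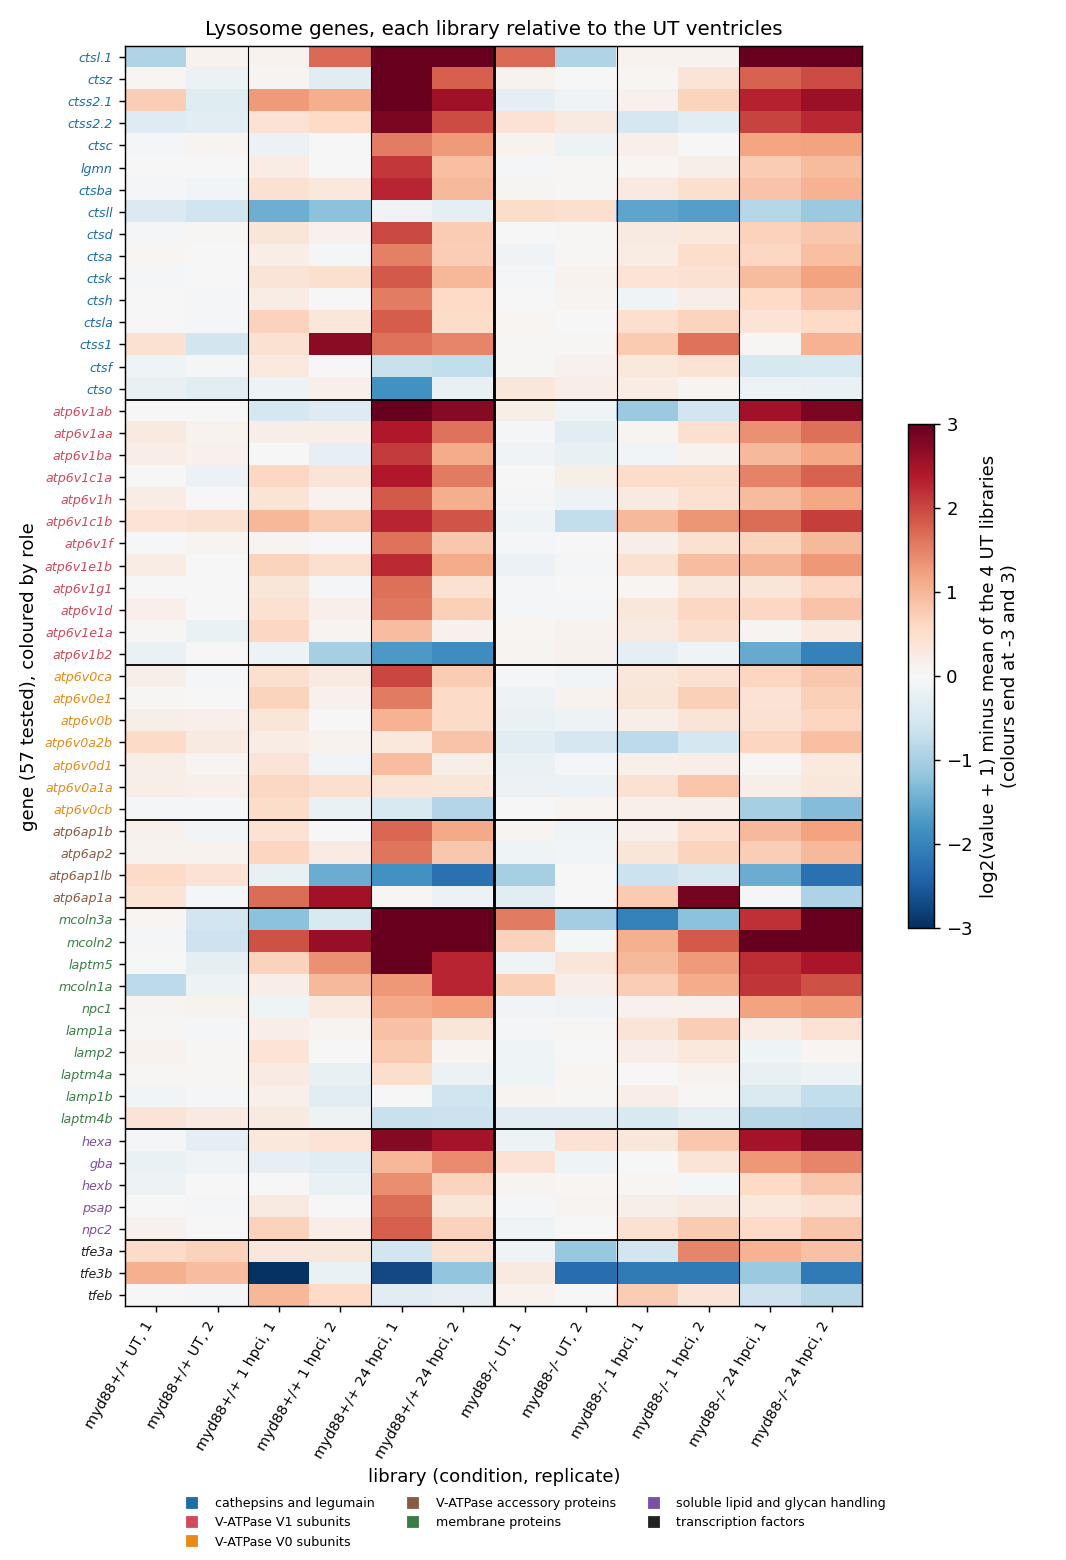
Each row is 1 of the 57 tested lysosome genes and each column 1 of the 12 libraries, with rows grouped by role and ordered by the change from 1 to 24 hpci in myd88+/+. Colour gives log2(value + 1) minus the mean of the 4 UT libraries. The 24 hpci columns are red for most cathepsins, V1 subunits and soluble proteins in both genotypes, deepest in replicate 1 of myd88+/+, and blue for atp6v1b2, atp6v0cb (palest in replicate 1 of myd88+/+), ctsf and laptm4b.

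Between 1 and 24 hpci, more of the lysosome genes were called higher than lower in each genotype. In myd88+/+ 34 of 57 members were called higher and 6 lower, where 16.9% of all genes tested were called higher and 18.0% lower, and the median log2 fold change of the members was 0.98, against -0.04 over all genes. In myd88-/- 21 members were called higher and 6 lower, where 18.1% and 16.3% of all genes were, with a median of 0.50 against -0.03. Compared with UT ventricles, 38 members were higher and 5 lower at 24 hpci in myd88+/+ (19.0% and 20.9% of all genes), and 27 were higher and 4 lower in myd88-/- (15.6% and 14.5%). Without replicate 1 of myd88+/+ at 24 hpci, 30 members in place of 40 were called between 1 and 24 hpci in that genotype, 24 higher and 6 lower (13.6% and 15.9% of all genes tested). Of these 29 had the same call with all libraries, and the median was 0.53. Against UT 35 of the 43 calls remained and the median went from 1.11 to 0.69. In myd88-/- the counts rested most on replicate 2 of 24 hpci, without which 16 members were called against UT and 16 between 1 and 24 hpci (12 higher and 4 lower, where 9.29% and 7.62% of all genes were). Without replicate 2 of myd88-/- UT, 20 were called against UT. In these fits fewer of all genes tested were called against UT as well. The 2 genotypes share no library in the comparisons between 1 and 24 hpci. They had 20 members higher in common, of the 34 and 21 called, and 5 lower, of 6 and 6, and no member was called in opposite directions. Over all genes tested 2158 were higher in both, of 2805 and 3006 called. Likewise 1919 were lower in both, of 2988 and 2710, and 8 of the 16643 were called in opposite directions. Across the 57 genes, which are not independent of each other, the changes in the 2 genotypes had a Pearson r of 0.92 and a Spearman rho of 0.91, against 0.81 and 0.80 over all genes tested.

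**Figure D2:**
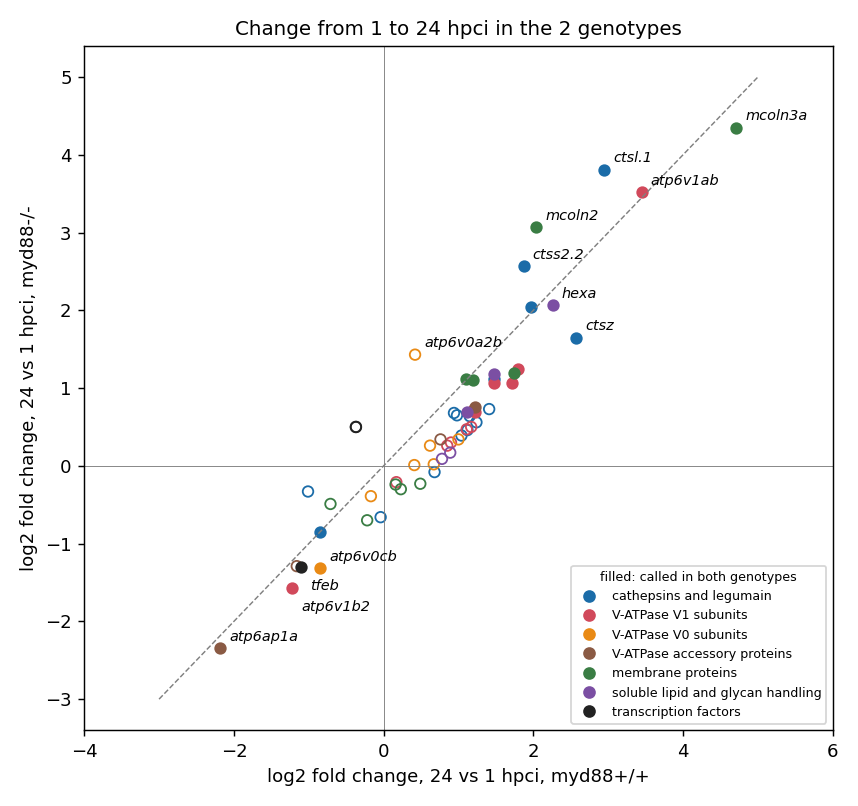
Each point is a lysosome gene, with its log2 fold change from 1 to 24 hpci in myd88+/+ on the horizontal axis and in myd88-/- on the vertical axis, coloured by role. Filled points were called in both genotypes (20 higher and 5 lower), the dashed line marks equal change, and many points with smaller rises lie below it, in the direction in which replicate 1 of myd88+/+ at 24 hpci moves the horizontal value.

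In bulk tissue, more cells of a type and more RNA per cell cannot be told apart, and most macrophage markers rose at the same time. Of 19 macrophage markers 15 were higher and 1 lower at 24 than at 1 hpci in myd88+/+, and 16 were higher and 1 lower in myd88-/- (13 and 2 in myd88+/+ without replicate 1 of 24 hpci). Over all genes tested 16.9% and 18.1% were called higher in myd88+/+ and myd88-/-. The summed value of the macrophage markers lay between 2539 and 2996 in the 4 UT libraries. At 1 hpci it was 3193 and 4089 in myd88+/+ and 2499 and 2352 in myd88-/-. All 19 markers lay lower in myd88-/- than in myd88+/+ at 1 hpci, with a median of -0.73 and none called. At 24 hpci the summed value was 15933 and 8907 in myd88+/+ and 8273 and 9595 in myd88-/-. The transcription factor spi1b and the scavenger receptor marco, which mark these cells, rose by 2.62 ± 0.30 and 2.30 ± 0.31 (log2, ± SE) in myd88+/+, and by 2.2 ± 0.29 and 1.73 ± 0.22 without replicate 1. No macrophage marker was at 0 in any library other than csf1rb, which was 0 in replicate 1 of myd88+/+ at 24 hpci. Of 11 neutrophil markers 1 was higher and 1 lower over the same interval in myd88+/+ (0 and 1 without replicate 1 of 24 hpci), and none was called by limma in myd88-/-, where the test gave 1 at an unadjusted p below 0.05. Markers of cardiomyocytes were called lower or not at all. From 1 to 24 hpci 18.0% and 16.3% of all genes were called lower in myd88+/+ and myd88-/-. The median log2 fold change of the cardiomyocyte markers was 0 in myd88+/+, with 7 below 0 and 8 above, and -0.62 in myd88-/-. Their summed value over 15 genes was 30617 and 31305 in myd88+/+ UT, 27493 and 23860 at 1 hpci and 28237 and 14043 at 24 hpci, and 26920 and 25880, 25772 and 24175, and 15268 and 12982 in myd88-/-. Thus 3 of the 4 libraries of 24 hpci lay below all the others. In each genotype 3 of the 15 were called lower at 24 than at 1 hpci and none higher, and 8 were in each without replicate 1 of myd88+/+ at 24 hpci. Against UT, 5 were lower in myd88+/+ and 4 in myd88-/-, and 12 and 10 without that library. No cardiomyocyte marker was at 0 in any library. Of 11 endothelial and endocardial markers, 4 were lower at 24 than at 1 hpci in myd88+/+ (5 without replicate 1), and 5 were lower and 1 higher in myd88-/-. Cell content was not measured, and its part in the rise of the lysosome genes was not tested.

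The largest rises among the proteases were those of ctsl.1, ctsz and the cathepsin S genes ctss2.1 and ctss2.2. In myd88+/+ 12 of the 16 cathepsin and legumain genes tested were called higher and 1 lower between 1 and 24 hpci, where 16.9% and 18.0% of all genes were. Without replicate 1 of 24 hpci the counts were 7 and 1 of the 15 then tested, against 13.6% and 15.9%. In myd88-/- 5 were higher and 1 lower, where 18.1% and 16.3% of all genes were. The exopeptidase gene ctsz had values of 217 and 185 in UT, 220 and 167 at 1 hpci, and 1797 and 723 at 24 hpci in myd88+/+. In myd88-/- the corresponding values of ctsz were 225 and 212, 218 and 274, and 720 and 818. All 4 libraries at 24 hpci were above the other 8, and ctsz rose by 2.57 ± 0.34 in myd88+/+ (adjusted p = 0.00045 by limma, 1.91 ± 0.23 without replicate 1) and by 1.65 ± 0.34 in myd88-/- (adjusted p = 0.0043).

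The tandem duplicates ctss2.1 and ctss2.2 encode cathepsin S, a protease that in mammals trims the invariant chain in antigen-presenting cells. They lie side by side on chromosome 16 (29509133 to 29513434 and 29514473 to 29519977 in danRer11), next to ctsk (29492749 to 29502787). Reads that fit more than 1 place were removed before counting, so the split between these genes is uncertain. In myd88+/+ ctss2.1 went from 269 and 238 at 1 hpci to 1520 and 654 at 24 hpci, and in myd88-/- from 122 and 177 to 554 and 663. For ctss2.2 the values were 92 and 102, then 482 and 265 in myd88+/+, and 47 and 53, then 276 and 328 in myd88-/-. The rises of ctss2.1 were 1.97 ± 0.41 and 2.04 ± 0.41 and those of ctss2.2 1.87 ± 0.27 and 2.57 ± 0.27, in myd88+/+ and myd88-/- respectively. In myd88+/+ they were 1.37 ± 0.39 and 1.44 ± 0.24 without replicate 1 of 24 hpci, both called. A further cathepsin S gene, ctss1, did not share this course. Its values were 3 and 18 at 1 hpci and 8 and 7 at 24 hpci in myd88+/+, and 4 and 8, then 2 and 5 in myd88-/-, and it was called in none of the comparisons.

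The gene ctsc, whose dipeptidyl peptidase activates the serine proteases of granulocytes in mammals, was close between replicates in every condition. Its values at 1 and 24 hpci were 379 and 423, then 1226 and 1026 in myd88+/+, and 472 and 424, then 964 and 986 in myd88-/-. It rose by 1.48 ± 0.17 and 1.12 ± 0.17 (adjusted p = 2e-04 and 0.00073 by limma), and by 1.36 ± 0.17 in myd88+/+ without replicate 1 of 24 hpci. The cathepsin L gene ctsl.1 was nearly silent before, at 0 to 5 in the 8 UT and 1 hpci libraries, and reached 23 and 29 at 24 hpci in myd88+/+ and 23 and 32 in myd88-/-. No fold change is given, since the earlier values stand for few reads. It was called in both genotypes between 1 and 24 hpci, but not without replicate 1 of myd88+/+ at 1 hpci, either myd88+/+ library at 24 hpci, or replicate 2 of myd88-/- at 24 hpci.

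The rises of cathepsins D, B, H and K from 1 to 24 hpci in myd88+/+ were smaller and depended on the library that stood apart. Against UT, ctsd, ctsba, ctsh and ctsk were called higher at 24 hpci in myd88+/+, and these calls were kept whichever library was left out. The changes that follow are those from 1 to 24 hpci unless UT is named. The aspartyl protease gene ctsd had 774 and 658 at 1 hpci and 2391 and 1013 at 24 hpci in myd88+/+, against 730 and 747, then 974 and 1061 in myd88-/-. Its rise of 1.12 ± 0.31 in myd88+/+ became 0.50 ± 0.15 without replicate 1, which is below the 1.5-fold threshold, the call was also lost without replicate 2 of 1 hpci (1.01), and its change in myd88-/- was 0.46 ± 0.31 (adjusted p = 0.27). The cathepsin B gene ctsba went from 637 and 580 to 2261 and 911 in myd88+/+, with a rise of 1.24 ± 0.32 that became 0.58 ± 0.16 (and 1.17, not called, without replicate 2 of 1 hpci), and from 564 and 649 to 837 and 950 in myd88-/-. The rise of ctsh in myd88+/+, 0.94 ± 0.26, was not called without replicate 1 of 24 hpci (0.47) or replicate 2 of 1 hpci (0.84). That of ctsk, 0.98 ± 0.24, was not called without replicate 1 of 24 hpci (0.55) or replicate 1 of 1 hpci (0.93). For ctsla, a cathepsin L gene, the values at 24 hpci were 2061 and 847 in myd88+/+ and 775 and 882 in myd88-/-, and it was called only against UT in myd88+/+ (1.21 ± 0.33), not without replicate 1 of 24 hpci (0.57) or either UT library (1.24 and 1.18). In contrast, the rise of legumain (lgmn), a protease that cuts after asparagine and activates cathepsins, from 1 to 24 hpci in myd88+/+ was called in all fits that left out 1 library. It was 0.80 ± 0.15 without replicate 1 of 24 hpci in place of 1.41 ± 0.31, and 0.73 ± 0.31 (adjusted p = 0.088 by limma) in myd88-/-.

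Not every cathepsin rose. The values of ctsf, a cysteine protease of the papain family, were 663 and 536 at 1 hpci and 338 and 321 at 24 hpci in myd88+/+, and 674 and 730, then 386 and 394 in myd88-/-. The 24 hpci values lay below all UT values, which ran from 497 to 586, and ctsf fell by 0.85 ± 0.16 in each genotype (adjusted p = 0.0024 and 0.0025 by limma), and by 0.89 ± 0.17 in myd88+/+ without replicate 1 of 24 hpci. With cyclic loess normalization, a scaling that may differ with the level of a gene, the call of ctsf was lost in myd88-/-. The related ctsll started from 46 and 41 in myd88+/+ UT and 91 and 87 in myd88-/- UT, had 22 and 26 and 20 and 19 at 1 hpci, and had 58 and 51 and 34 and 28 at 24 hpci. It was called lower at 1 hpci than in UT in myd88-/- (-2.13 ± 0.29, adjusted p = 0.0015) and higher at 24 than at 1 hpci in myd88+/+ (1.15 ± 0.29, adjusted p = 0.012, and 1.06 ± 0.35 without replicate 1). In myd88-/- ctsll was also called lower at 24 hpci than in UT, and this call was kept in all 12 fits that left out 1 library.

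Of the 12 genes tested for the V1 sector of the proton pump, 10 were called higher and 1 lower between 1 and 24 hpci in myd88+/+, and 7 and 1 without replicate 1 of 24 hpci or without replicate 2 of 1 hpci. In myd88-/- 6 were higher and 1 lower, and 2 and 1 without replicate 2 of 24 hpci, when only the A subunit genes atp6v1aa and atp6v1ab kept the call. The shares over all genes were 16.9% higher and 18.0% lower in myd88+/+ and 18.1% and 16.3% in myd88-/-, and 9.29% and 7.62% in myd88-/- without that library. The gene that fell in each genotype was a B subunit gene, atp6v1b2. The largest rise was that of atp6v1ab, which encodes a copy of the catalytic A subunit. Its values were 117 and 117 in UT, 82 and 90 at 1 hpci, and 1132 and 795 at 24 hpci in myd88+/+. In myd88-/- atp6v1ab had 134 and 108, 54 and 79, and 682 and 844. The 24 hpci libraries were thus far from the others in each genotype, with rises of 10.9-fold and 11.5-fold (log2 3.45 ± 0.24 and 3.52 ± 0.24, adjusted p = 4.8e-05 and 2.8e-05 by limma), and of 9.16-fold in myd88+/+ without replicate 1. The other copy of the A subunit, atp6v1aa, rose less, by 1.80 ± 0.25 in myd88+/+ and 1.24 ± 0.25 in myd88-/-, from 372 and 371 to 1695 and 992 and from 339 and 448 to 839 and 1007 (1.41 ± 0.21 in myd88+/+ without replicate 1). The difference between these copies was not tested.

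The B subunit, which shares the nucleotide-binding sites with A, showed opposite changes in its genes. The values of atp6v1ba at 1 and 24 hpci were 474 and 393, then 2023 and 1009 in myd88+/+, and 441 and 501, then 928 and 1046 in myd88-/-. Those of atp6v1b2 were 200 and 110, then 66 and 60 in myd88+/+, and 179 and 204, then 77 and 53 in myd88-/-, after 192 to 242 in the 4 UT libraries. Thus atp6v1ba rose by 1.72 ± 0.27 and 1.07 ± 0.27, and atp6v1b2 fell by 1.22 ± 0.29 and 1.57 ± 0.29, in myd88+/+ and myd88-/- respectively. Their changes in myd88+/+ without replicate 1 of 24 hpci were 1.22 ± 0.17 and -1.29 ± 0.35, both called. The call of atp6v1b2 in myd88+/+ was lost without replicate 1 of 1 hpci (-0.80), and that of atp6v1ba in myd88-/- without replicate 1 of 1 hpci (0.97) or replicate 2 of 24 hpci (0.98). Of the 3 genes of the C subunit, which holds the sectors together, atp6v1c2 was among those too low to test. The other two were called higher in each genotype, atp6v1c1a by 1.47 ± 0.25 and 1.07 ± 0.25 and atp6v1c1b by 1.21 ± 0.26 and 0.73 ± 0.26, the last of these with an adjusted p of 0.048. In myd88-/- the call of atp6v1c1a was lost without replicate 2 of 24 hpci (0.94), and that of atp6v1c1b in 7 of the 12 fits that left out 1 library (0.52 to 0.93). In myd88+/+ without replicate 1 of 24 hpci the rises were 1.05 ± 0.19 and 1.01 ± 0.30, both called. The H subunit, which couples ATP hydrolysis to rotation, was alike, with atp6v1h at 1.22 ± 0.24 in myd88+/+ (0.84 ± 0.19 without replicate 1) and 0.69 ± 0.24 in myd88-/-, the latter lost in 8 of the 12 fits (0.59 to 0.79). The E subunit gene atp6v1e1a was not called in any of the 6 comparisons between conditions, other than against UT with replicate 1 as the only myd88+/+ library of 24 hpci (1.01).

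In the V0 sector 2 of 7 tested genes were higher and 1 lower between 1 and 24 hpci in myd88+/+ (1 and 1 without replicate 1 of 24 hpci), and 1 was higher and 1 lower in myd88-/-. These are few genes, and their shares lie near those over all genes, which were 16.9% higher and 18.0% lower in myd88+/+ and 18.1% and 16.3% in myd88-/-. The proteolipid c subunit forms the rotating ring, and its genes moved apart. The values of atp6v0ca were 643 and 553 at 1 hpci and 1840 and 774 at 24 hpci in myd88+/+, and 575 and 625, then 711 and 805 in myd88-/-. Those of atp6v0cb were 523 and 312, then 261 and 192, and 394 and 404, then 178 and 143. The fall of atp6v0cb was 0.85 ± 0.25 in myd88+/+ and 1.32 ± 0.25 in myd88-/- (adjusted p = 0.022 and 0.0025 by limma), the first of which was lost without replicate 1 of myd88+/+ at 1 hpci (-0.48) or replicate 2 at 24 hpci (-0.63) and was -1.07 ± 0.27 without replicate 1 at 24 hpci. The rise of atp6v0ca was called in myd88+/+ (1.00 ± 0.32, adjusted p = 0.031) and was 0.38 ± 0.17 without replicate 1 of 24 hpci (adjusted p = 0.12), 1.11 without replicate 1 and 0.89 without replicate 2 of 1 hpci, none of them called, and in myd88-/- it was 0.34 ± 0.32. Of the other V0 genes, atp6v0b was called between 1 and 24 hpci in myd88+/+ (0.62 ± 0.20), in 6 of the 12 fits that left out 1 library, and not in myd88-/- (0.26 ± 0.20). The values of atp6v0d1 at 24 hpci were 970 and 579 in myd88+/+ and 531 and 624 in myd88-/-, after 442 to 572 in UT, and it was called in none of the comparisons between conditions, except with replicate 1 as the only myd88+/+ library of 24 hpci (0.80 against UT and 0.78 against 1 hpci).

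The a subunit of V0 forms the path of the protons and directs the pump to its membrane. Its gene atp6v0a2b had 283 and 230 in myd88+/+ UT, 224 and 205 at 1 hpci and 239 and 347 at 24 hpci. In myd88-/- the values of atp6v0a2b were 152 and 135, 110 and 132, and 298 and 358. The mutant libraries were thus below all the wild type ones before and at 1 hpci and overlapped them at 24 hpci. The change from 1 to 24 hpci was called in myd88-/- (1.43 ± 0.22, adjusted p = 9e-04) and not in myd88+/+ (0.42 ± 0.22, adjusted p = 0.16), and the test of the difference between these changes gave 1.01 ± 0.31 with an adjusted p of 0.63. Without replicate 1 of 24 hpci the change of atp6v0a2b in myd88+/+ was called too (0.69 ± 0.22, adjusted p = 0.041), and with replicate 1 as the only library of that condition the difference between the changes was called (1.27, adjusted p = 0.037). Outside the symbols of the rule, tcirg1b encodes another a subunit. It rose from 209 and 215 to 1627 and 1070 in myd88+/+ (2.63 ± 0.24, and 2.33 ± 0.24 without replicate 1) and from 256 and 235 to 941 and 1069 in myd88-/- (2.03 ± 0.24).

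Accessory proteins help to assemble the pump. The genes atp6ap1b and atp6ap2 were both called higher at 24 hpci than in UT in each genotype, by 1.41 ± 0.24 and 1.1 ± 0.25 in myd88+/+ and by 1.11 ± 0.24 and 0.96 ± 0.25 in myd88-/-. In myd88+/+ they were 1.11 ± 0.24 and 0.70 ± 0.21 without replicate 1 of 24 hpci, and both stayed called. In myd88-/- both calls were lost without replicate 2 of UT (1.01 and 0.98) or replicate 2 of 24 hpci (0.98 and 0.84), and that of atp6ap2 also without replicate 1 of UT (0.95). The weakly expressed atp6ap1lb had 20 and 18 in myd88+/+ UT and 3 and 2 at 24 hpci, under the level of 3 reads in each library, and was called lower, but not without either UT library. By comparison, atp6ap1a was highest at 1 hpci. Its values were 73 and 52 in UT, 177 and 319 at 1 hpci and 56 and 48 at 24 hpci in myd88+/+, and 43 and 54, 95 and 407, and 52 and 28 in myd88-/-. All 4 libraries at 1 hpci exceeded the other 8, with a wide spread between replicates. The rise from UT missed the threshold in each genotype (1.93 ± 0.58 and 2.01 ± 0.58, adjusted p = 0.065 and 0.051 by limma), and the fall from 1 to 24 hpci passed it (-2.18 ± 0.58 and -2.34 ± 0.58, adjusted p = 0.015 and 0.010). Without replicate 2 of 1 hpci, the higher library, the fall was not called in the genotype concerned (-1.75 and -1.29), nor was that in myd88-/- without replicate 2 of 24 hpci (-1.90).

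**Figure D3:**
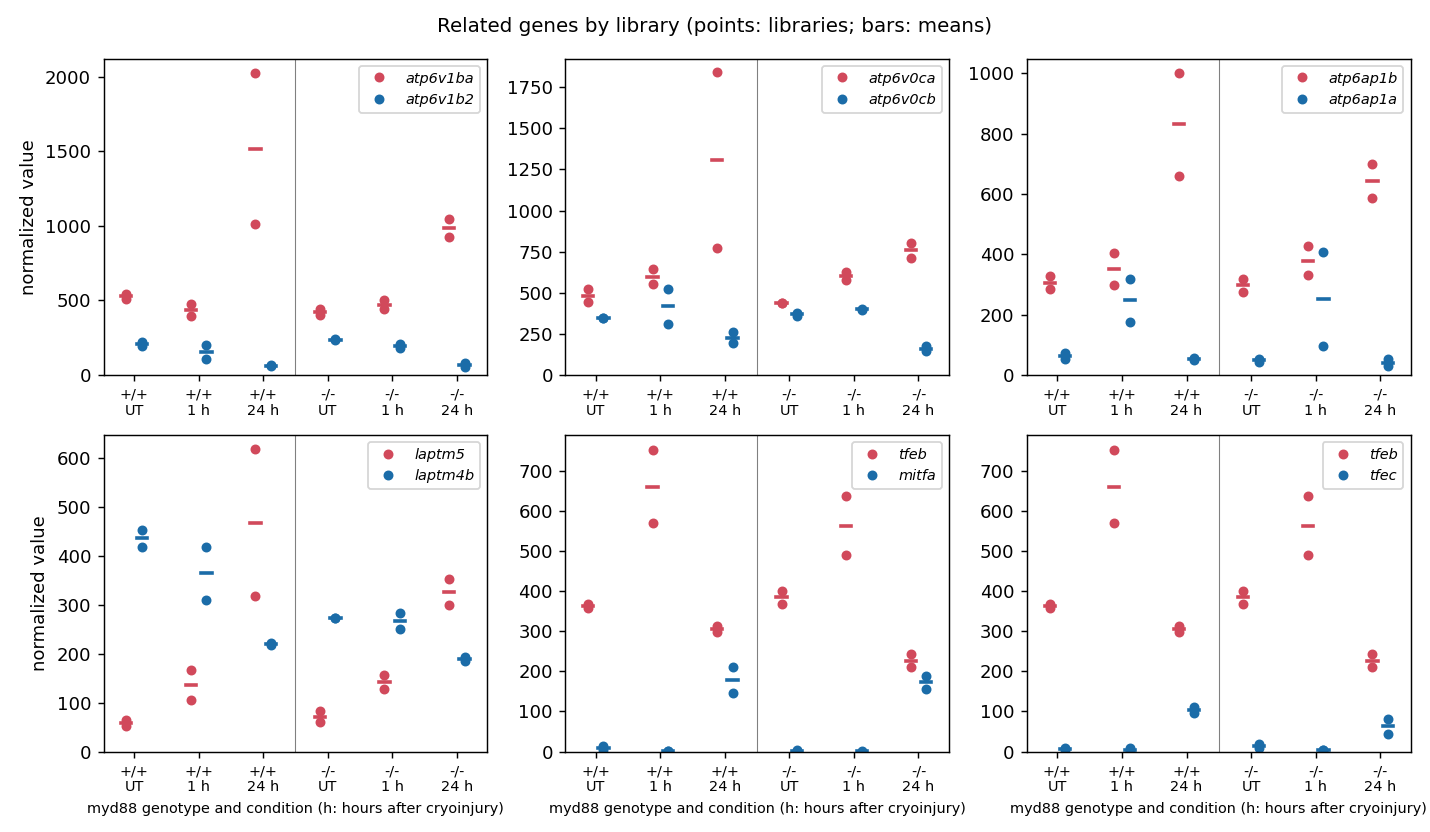
Normalized values of pairs of related genes in the 6 conditions, with a point for each library and a bar for the mean of the 2 libraries. In each of the upper panels and the lower left one, 1 gene of the pair was higher and the other lower at 24 hpci than at 1 hpci in both genotypes, with atp6v0ca in myd88-/- and laptm4b in myd88-/- not called. The remaining panels set tfeb beside mitfa and tfec, and levels are not compared between genes because the values take no account of length.

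The mucolipins are cation channels that release calcium from endosomes and lysosomes, and mcoln2 and mcoln3a had the largest rises among the membrane proteins. The values of mcoln2 were 5 and 3 in myd88+/+ UT, 22 and 37 at 1 hpci, and 109 and 134 at 24 hpci, and in myd88-/- they were 9 and 5, 12 and 21, and 129 and 154. It was among the few lysosome genes called at 1 hpci, with a rise of 2.59 ± 0.45 over UT in myd88+/+ (adjusted p = 0.0085, not called without replicate 2 of UT, 2.30 ± 0.55). In myd88-/- the change of mcoln2 at 1 hpci was 1.13 ± 0.45 (adjusted p = 0.14), and the genotypes at 1 hpci differed by -0.81 ± 0.45 (adjusted p = 0.71). From 1 to 24 hpci mcoln2 rose by 2.04 ± 0.45 (2.19 ± 0.57 without replicate 1 of 24 hpci) and 3.07 ± 0.45. The values of mcoln3a were 6 and 11 at 1 hpci and 221 and 257 at 24 hpci in myd88+/+, and 3 and 6, then 74 and 154 in myd88-/- (4.71 ± 0.74 and 4.35 ± 0.74, the first of them 4.82 ± 0.95 without replicate 1). A smaller rise, of 1.2 ± 0.38 and 1.11 ± 0.38, was called for mcoln1a, the counterpart of the channel that is mutated in human mucolipidosis. Its call was lost without replicate 1 of 1 hpci (0.82) or replicate 2 of 24 hpci (0.71) in myd88+/+, and without any 1 of the 6 myd88-/- libraries in myd88-/- (0.92 to 1.3).

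The cholesterol exporter npc1 was among the members least affected by the choice of libraries. It had 423 and 572 at 1 hpci and 1023 and 1094 at 24 hpci in myd88+/+, and 505 and 509, then 1080 and 1122 in myd88-/-, with rises of 1.1 ± 0.17 and 1.12 ± 0.17 (1.15 ± 0.18 in myd88+/+ without replicate 1). The lysosomal protein Laptm5 is made by blood cells, and laptm5 rose from 105 and 167 to 619 and 318 in myd88+/+ and from 127 and 156 to 300 and 352 in myd88-/- (1.74 ± 0.33 and 1.2 ± 0.33). The first was a 2.39-fold rise without replicate 1 of 24 hpci and stayed called. The rise of laptm5 in myd88-/- was not called without replicate 1 of 1 hpci (1.05) or replicate 2 of 24 hpci (1.09) of myd88-/-. The related laptm4b went from 419 and 311 to 218 and 222 in myd88+/+ (-0.71 ± 0.18, adjusted p = 0.011) and from 251 and 283 to 194 and 186 in myd88-/- (-0.49 ± 0.18, adjusted p = 0.056). Its fall in myd88+/+ was not called without replicate 1 of 1 hpci (-0.50) and was -0.70 ± 0.20 without replicate 1 of 24 hpci. The Lamp proteins coat the inner face of the lysosomal membrane, and no gene of theirs was called higher between 1 and 24 hpci. The lamp2 values ran from 802 to 942 in UT and from 809 to 1520 at 24 hpci, with a change of 0.23 ± 0.23 in myd88+/+ and -0.30 ± 0.23 in myd88-/- from 1 to 24 hpci. Neither lamp2 nor laptm4a was called in any of the comparisons between conditions, apart from lamp2 against UT with replicate 1 as the only myd88+/+ library of 24 hpci (0.72). The gene lamp1b was called only between 1 and 24 hpci in myd88-/- (-0.70 ± 0.23, adjusted p = 0.036), a call lost in 8 of the 12 fits that left out 1 library (-0.85 to -0.55) and with cyclic loess. The values of lamp1a were 227 and 218 in UT, 255 and 235 at 1 hpci and 409 and 288 at 24 hpci in myd88+/+, and 216 and 230, 293 and 370, and 262 and 299 in myd88-/-. In myd88+/+ lamp1a was called higher at 24 hpci than in UT (0.62 ± 0.20, adjusted p = 0.032 by limma), but not without replicate 1 of 24 hpci (0.37) or either UT library (0.65 and 0.59).

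All 5 soluble proteins that handle lipids and glycans were called higher at 24 hpci than in UT in myd88+/+, where 19.0% of all genes tested were. Of these, hexa and gba were also called higher in myd88-/-, where 15.6% of all genes were. The gene hexa, for the alpha subunit of beta-hexosaminidase, had 51 and 55 at 1 hpci and 284 and 235 at 24 hpci in myd88+/+, and 52 and 72, then 237 and 287 in myd88-/-. The rises of hexa were 2.26 ± 0.28 and 2.07 ± 0.28 (adjusted p = 0.00029 and 0.00041 by limma). Those of gba, which encodes glucocerebrosidase, were 1.48 ± 0.23 and 1.18 ± 0.23, from 125 and 120 to 299 and 397 and from 150 and 195 to 369 and 410. Without replicate 1 of myd88+/+ at 24 hpci the rises were 2.13 ± 0.34 for hexa and 1.69 ± 0.26 for gba. The beta subunit gene hexb rose by 1.12 ± 0.22 in myd88+/+ (0.76 ± 0.17 without replicate 1) and 0.69 ± 0.22 in myd88-/-, the latter lost in 8 of the 12 fits (0.58 to 0.8). Prosaposin (psap), the precursor of the saposins that assist lipid hydrolysis, depended on that library: its values at 24 hpci were 3563 and 1436 in myd88+/+ and 1378 and 1526 in myd88-/-, after 1072 to 1177 in UT. The rise over UT in myd88+/+ was 1.06 ± 0.33 with both libraries and 0.41 ± 0.15 without replicate 1 (adjusted p = 0.066), and the call was lost without either UT library too (1.08 and 1.05). The call of npc2, a carrier of cholesterol in the lumen, was lost in the same fits, at 1.16 ± 0.31 with all libraries, 0.61 without replicate 1 and 1.21 and 1.1 without either UT library.

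The transcription factor gene tfeb fell between 1 and 24 hpci, when more of the lysosome genes were called higher than lower. Its values were 368 and 358 in UT, 751 and 569 at 1 hpci and 299 and 312 at 24 hpci in myd88+/+, and 400 and 368, 637 and 489, and 242 and 210 in myd88-/-. In each genotype the libraries of 1 hpci were the highest and those of 24 hpci the lowest, with no overlap between conditions. From 1 to 24 hpci tfeb fell by 1.1 ± 0.19 and 1.30 ± 0.19 (adjusted p = 0.0018 and 0.00067 by limma), and the call held in all 12 fits that left out 1 library (-1.06 ± 0.22 in myd88+/+ without replicate 1 of 24 hpci). The earlier rise was called in myd88+/+ (0.85 ± 0.19, adjusted p = 0.024) but not in myd88-/- (0.54 ± 0.19, adjusted p = 0.10), and the difference between the genotypes at 1 hpci was -0.23 ± 0.19 (adjusted p = 0.89). The call of tfeb at 1 hpci was lost without either myd88+/+ UT library (0.87 and 0.83) or replicate 1 of 1 hpci (0.65). The values of tfe3a and tfe3b were low and scattered, at 3 to 23 and 4 to 81. Of these tfe3b was called, lower at 24 hpci than in UT in myd88+/+ (-2.95 ± 0.98, adjusted p = 0.034), and not without replicate 1 of 24 hpci (-2.20), either UT library (-2.87 and -3.02) or either myd88-/- library of 1 hpci (-2.95 in each).

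Of the other genes of the same family, mitfa and tfec rose between 1 and 24 hpci, whereas mitfb, with values of 2 to 6 in the libraries of 1 and 24 hpci, was not called (0.34 ± 0.58 in myd88+/+ and -0.54 ± 0.58 in myd88-/-). They belong to a list of 18 regulators of mTORC1 and of these factors at the lysosome, of which 3 were higher and 2 lower in myd88+/+, and 2 were higher and 2 lower in myd88-/-. These counts are at or below the shares over all genes, 16.9% higher and 18.0% lower in myd88+/+ and 18.1% and 16.3% in myd88-/-. The gene mitfa had values of at most 1 in the 4 libraries of 1 hpci and of 211 and 147 at 24 hpci in myd88+/+ and 156 and 189 in myd88-/-, after 0 to 14 in UT. It was called in both genotypes, and no fold change is given because it would rest on a single read. In myd88+/+ the counts of this list became 2 and 1 without replicate 1 of 24 hpci. The gene tfec, whose counterpart in mice is expressed in macrophages, went from 1 and 9 to 112 and 97 in myd88+/+ and from 4 and 4 to 45 and 81 in myd88-/-, with rises of 4.56 ± 0.75 (4.45 ± 0.97 without replicate 1 of 24 hpci) and 3.62 ± 0.75. The tfec values at 1 hpci stand for few reads, so the size of these rises is uncertain. The gene rragd encodes a GTPase that recruits mTORC1 to the lysosome and is itself a target of these factors in mammals. It fell from 337 and 235 to 46 and 86 in myd88+/+ and from 330 and 303 to 128 and 88 in myd88-/- (-2.14 ± 0.30, or -1.70 ± 0.27 without replicate 1 of 24 hpci, and -1.57 ± 0.30).

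Further lysosomal genes outside the rule and genes of autophagy were counted in the same way, beside 16.9% higher and 18.0% lower over all genes from 1 to 24 hpci in myd88+/+ and 18.1% and 16.3% in myd88-/-. Of 67 other lysosomal genes 36 were higher and none lower from 1 to 24 hpci in myd88+/+ (38 without replicate 1 of 24 hpci), and 31 were higher and none lower in myd88-/- (15 without replicate 2 of 24 hpci), with medians of 1.04 and 0.74. In each genotype 42 of these 67 genes had an unadjusted p below 0.05 by limma, in either direction, and 10 and 12 genes had a change below 0. The progranulin gene grna rose from 188 and 314 to 2535 and 1500 in myd88+/+ and from 143 and 100 to 1401 and 1549 in myd88-/-, and the acid nuclease gene dnase2 from 101 and 191 to 1033 and 754 and from 58 and 55 to 754 and 741. In myd88+/+ the rises of grna and dnase2 were 3.00 ± 0.30 and 2.66 ± 0.27, and 2.62 ± 0.30 and 2.43 ± 0.32 without replicate 1 of 24 hpci. Of 29 autophagy genes 1 was higher and 10 lower from 1 to 24 hpci in myd88+/+ (1 and 11 without replicate 1 of 24 hpci), and 1 was higher and 16 lower in myd88-/- (0 and 5 without replicate 2 of 24 hpci), with medians of -0.48 and -0.68. The difference between these lists was not tested. The kinase gene ulk1a, which starts autophagosome formation, fell by 1.71 ± 0.35 (1.41 ± 0.41 without replicate 1 of 24 hpci) and 1.91 ± 0.35. The gene map1lc3cl, of the family that coats autophagosomes, had 410 and 210 at 1 hpci and 13 and 4 at 24 hpci in myd88+/+, and 473 and 455, then 8 and 1 in myd88-/-, after 26 to 52 in UT. Of 9 inhibitors of cathepsins 4 were higher in myd88+/+ (3 higher and 1 lower without replicate 1 of 24 hpci) and 5 were higher in myd88-/- (2 without any 1 of its libraries of 1 or 24 hpci), with none lower, where 4 and 6 had an unadjusted p below 0.05 by limma. Among these, the cystatin gene cst14b.1 went from 78 and 70 to 378 and 186 and from 85 and 88 to 161 and 197.

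At 1 hpci, few lysosome genes differed from UT. In myd88+/+ 2 of 57 members were higher, mcoln2 and tfeb, and none was lower, where 5.01% of all genes tested were called higher and 3.73% lower. An unadjusted p below 0.05 by limma was found there for 11 members and for 4119 of all 16643 genes. In myd88-/- 2 were higher and 2 lower, where 5.90% and 4.55% of all genes were. Those higher were atp6v0a1a (394 and 392 in UT, 606 and 797 at 1 hpci, 0.82 ± 0.17, not called without either myd88-/- UT library, 0.82 in each, or replicate 2 of 1 hpci, 0.62) and atp6v1c1b (89 and 58, then 192 and 245, 1.58 ± 0.26, not called without replicate 2 of 1 hpci, 1.41), and those lower were ctsll and atp6v1ab (-0.87 ± 0.24, adjusted p = 0.047, lost in 8 of the 12 fits that left out 1 library). Like the counts over all genes tested, which rose and fell in the same fits, these counts of members were unstable. In myd88+/+ there were 1 and 0 calls without replicate 1 and replicate 2 of UT and 5 without either replicate of 24 hpci, and in myd88-/- there were 9 and 10 calls without replicate 1 and replicate 2 of myd88+/+ at 24 hpci, 2 without replicate 1 of myd88-/- UT and 1 without replicate 2 of myd88-/- at 1 hpci. The UT libraries of the genotypes also differed in genes that respond to handling: the summed value of 12 immediate-early genes was 6427 and 5114 in myd88+/+ UT and 1789 and 2864 in myd88-/- UT, and 5 of the 12 were called lower in myd88-/-. Its part in the comparisons with UT was not tested.

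With all libraries, no lysosome gene was called between the genotypes. In UT 0 of 57 members were called, against 2.08% of all genes tested. An unadjusted p below 0.05 by limma was found in UT for 6 members and for 2718 of all 16643 genes. At 1 hpci 0 were called, against 0.120% of all genes, and 3 had an unadjusted p below 0.05, against 1472 of all 16643. At 24 hpci 0 were called, against 0.0300% of all genes, and 2 had an unadjusted p below 0.05, against 853 of all 16643. For the genotype difference of the change from 1 to 24 hpci 0 were called, against 0.0180% of all genes. There 2 members had an unadjusted p below 0.05 by limma, against 991 of all 16643. The smallest adjusted p in UT were those of laptm4b, at -0.67 ± 0.18 (0.089), and of atp6v0a2b, at -0.83 ± 0.22 (0.091), both lower in both myd88-/- libraries. The atp6v0a2b difference was also -0.83 ± 0.22 at 1 hpci (adjusted p = 0.24). In UT laptm4b was called without either myd88+/+ library of 1 hpci (adjusted p = 0.039 and 0.041) and atp6v0a2b without either myd88+/+ library of 24 hpci (adjusted p = 0.041 in each), with the same differences, and neither was called in the other fits that left out 1 library, where the adjusted p of atp6v0a2b ran from 0.083 to 0.54.

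At 24 hpci, 44 of the 57 members lay lower in myd88-/- than in myd88+/+, with a median of -0.35, where the median of all genes was 0.04. This shift rested on a single library. Without replicate 1 of myd88+/+ the median was -0.01 and 30 of the 56 members then tested lay below 0. With replicate 1 as the only myd88+/+ library the median was -0.73, against 0.08 over all genes, and 47 members lay below 0. Many more genes were called in that fit than with both libraries, with a larger share among the members than among all genes tested. In both of these fits a single library was assumed to vary like those of the other conditions. The genes ctsba, ctsd, ctsz, lgmn and psap, for example, had differences of -0.69, -0.61, -0.57, -0.66 and -0.64 with both libraries, and of -0.03, 0.01, 0.09, -0.06 and 0.01 without replicate 1. The values of the other 3 libraries at 24 hpci were close, as for lgmn with 1318 in myd88+/+ and 1190 and 1349 in myd88-/-, against 3053 in replicate 1. The summed value of 15 cardiomyocyte markers was also higher in that library, at 28237 against 14043 in its replicate and 15268 and 12982 in myd88-/-. The part of its depth and of its cell content in its high lysosome values was not tested.

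**Figure D4:**
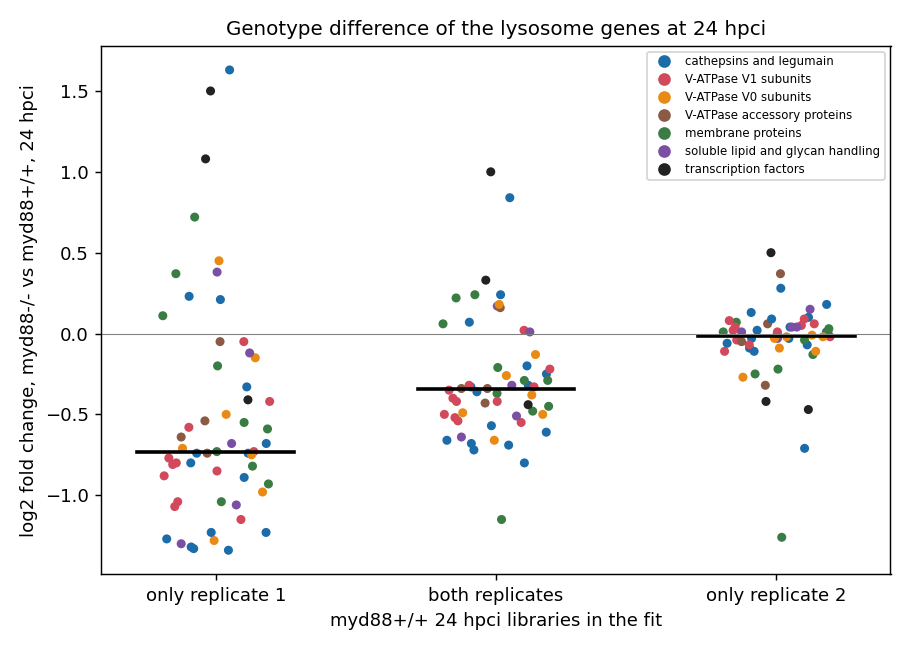
Log2 fold change of 56 lysosome genes between myd88-/- and myd88+/+ at 24 hpci, with a point for each gene, coloured by role, and a black bar for the median. From left to right, myd88+/+ is represented by replicate 1 alone, by both replicates and by replicate 2 alone, and the medians move from -0.73 to -0.01.

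Across all 12 fits that left out 1 library, 11 members stayed called higher from 1 to 24 hpci in both genotypes, namely atp6v1aa, atp6v1ab, ctsc, ctss2.1, ctss2.2, ctsz, gba, hexa, mcoln2, mcoln3a and npc1. Only ctsf and tfeb stayed called lower in both. The same count over all genes tested was not made. With all libraries, 20 and 5 of the 57 members were called higher and lower in both genotypes. Over all 16643 genes tested these counts were 2158 and 1919.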

How the data were processed

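Stranded libraries were made and sequenced by the authors. Their reads were trimmed (Trimmomatic 0.39), aligned to danRer11 (STAR 2.7.3a), cleared of duplicates (Picard 2.21.7) and of multimapping, ribosomal and mitochondrial reads, counted per gene without reads over several genes (featureCounts 1.6.5) and normalized (DESeq2 1.26.0). The strand setting of counting is not given in the sources used here, so values of overlapping pairs (ctsba and cgref1, ctsf and trpt1, laptm4b and rida, atp6v1e1b and ada2b, atp6v1f and lamtor4) are uncertain. The same holds for ctss2.2, atp6v1aa, atp6v0ca, atp6v0b, atp6v0e1, lamp1a and lamp2, which overlap genes known only by a clone name. The deposited values are treated as a score, since each count was scaled by the size factor of its library and rounded. Removing duplicates of single-end reads limits how many reads an abundant gene can keep, and the scaling is the same for all genes of a library. Removing multimapping reads lowers the values of near-identical copies.

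Groups come from the sample labels. limma 3.58.1 (R 4.3.3) was fitted with a mean-variance trend and 1 mean for each of the 6 conditions, leaving 6 residual degrees of freedom, and p-values were adjusted over 16643 genes. Calls needed a log2 change beyond 0.585. No source says whether the pools were separate experiments, so p-values measure the spread between pools. Depth, estimated from the steps between low values, covers counting error only. The scripts were tested on simulated data.

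The members and gene lists were chosen with earlier results of these data known. By the rule for naming, each role gave its 4 members with the highest mean, its 3 largest called rises and falls in each comparison between conditions in myd88+/+, and any member called between genotypes, which took 42 of 57. Of these, atp6v1d and atp6v0e1 were not described in the Results. In fits that left out 1 library, atp6v1d lost its call from 1 to 24 hpci in myd88+/+ in 2. Its call against UT at 24 hpci in myd88-/- was lost in 8. That of atp6v0e1 against UT at 24 hpci in myd88+/+ was lost in 3. Other members named (such as ctsc, ctsh, ctsk, ctsll, atp6v0a2b, atp6v1c1b and mcoln1a), the genes named from the lists and the pairing of related genes were chosen after their values were seen. Alternatives were a pseudocount of 5, no filter, TMM factors, fits of only the groups compared, the replicate number as a block, each library left out and, chosen after seeing the data, cyclic loess.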

Additional observations from a re-analysis of the deposited data

How the results depend on the processing

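With 2 pools a group, the counts of called members moved with the choice of libraries and hardly with the scaling. Counts over all genes tested moved with the choice of libraries too. A pseudocount of 5, no filter, TMM factors and cyclic loess left every count of called members within 1.5 times, and of 120 values of named members they changed the call of 0, 2, 1 and 3. Fits of only the groups compared, with fewer libraries for the spread, called 0, 23 and 15 members in myd88+/+ at 1 hpci against UT, 24 hpci against UT and 24 against 1 hpci, and 1 between genotypes in UT (laptm4b). Of all 16643 genes, these fits called 0, 4061, 1902 and 412 in the same comparisons. In myd88-/- they called 6124 and 6200 of all genes at 24 hpci against UT and against 1 hpci, in place of 5014 and 5716. Leaving out each library gave 0 to 5 and 1 to 10 calls at 1 hpci against UT in myd88+/+ and myd88-/-, 16 to 39 and 16 to 30 in myd88-/- at 24 hpci against UT and against 1 hpci, 0 to 1 between genotypes in UT, 0 to 26 between genotypes at 24 hpci and 0 to 13 for the genotype difference of the change from 1 to 24 hpci. Without replicate 1 of myd88+/+ at 24 hpci, 32 of 56 members kept the sign of their difference between genotypes at 24 hpci. Among ctsba, ctsd, ctsz, lgmn and psap, 3 changed sign. The range over the libraries left out was -1.23 to 0.01 for ctsd, -1.23 to 0.09 for ctsz and -1.30 to 0.01 for psap.

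Deviations from the group means of libraries with the same replicate number had correlations of -0.35 to 0.28 over 15 pairs of groups. They ran from 0.01 to 0.28 within a genotype and from -0.35 to -0.02 between genotypes. These values do not decide whether the numbers pair libraries within a genotype. A replicate block, with 1 term shared by both genotypes, does not decide it either. With a replicate block, the counts of called members at 24 hpci against UT and against 1 hpci were 43 and 39 in myd88+/+ and 32 and 26 in myd88-/-. They were 2 and 3 at 1 hpci against UT, and 0 in each genotype comparison, for which 6, 3, 2 and 2 members had an unadjusted p below 0.05 by limma without the block.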
